A study of Mus musculus with 24 samples.

Results

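The clade B serpins described here were the 8 mouse genes Serpinb2, Serpinb5, Serpinb11, Serpinb1a, Serpinb6a, Serpinb6b, Serpinb9 and Serpinb10, out of 28 clade B genes and 35855 genes in all. They were chosen by their summed estimated counts and TPM, a length-scaled abundance, in all 24 libraries, with earlier results of these libraries in view. Their differences between groups are therefore given as a description, with standard errors and without p-values. RNA was sequenced from 24 pools of 1000 airway epithelial cells each. The cells were sorted from the tracheas of naive, wild-type female mice, of the C57BL/6 strain by the series title. The 3 groups, with 8 libraries each, were labelled BCAM HI, BCAM LO and DIFFERENTIATED EPCS (differentiated below). BCAM, a laminin receptor of the cell surface, was the sorting marker of the first 2 groups, which the series title names as basal cell subsets; basal cells are progenitors of the airway lining. Each group held 5 libraries of batch 1 and 3 of batch 2, and the labels do not say what the batch number stands for. No group carried a treatment, a transgene or another allele by the labels. The labels give neither age nor the number of mice behind each pool, so the tests measure the spread between these libraries, which may be partly technical.

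Serpins are folded around an exposed stretch of protein, the reactive loop, that a protease takes for its substrate. In an inhibitory serpin, cleavage of the loop lets its front part, the hinge, slot into the body of the serpin, and the protease is trapped in a covalent complex. Clade B serpins lack a classical secretion signal, and most act inside the cell, where they guard against proteases that leak from granules or lysosomes. Some members, Serpinb5 (maspin) among them, do not inhibit proteases in this way. In surface epithelia, several members mark particular layers or stages of differentiation.

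The coding sequence of the loop is shown for the 8 genes because the hinge has to slot in for a protease to be trapped. Each line runs 5′ to 3′ from the first hinge codon to the conserved end of the loop, as read from the GENCODE M21 coding sequence (build GRCm38). Capitals mark the 24 bases (8 codons) of the hinge.
Serpinb2: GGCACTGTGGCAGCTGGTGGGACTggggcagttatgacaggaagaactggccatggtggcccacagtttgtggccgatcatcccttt
Serpinb11: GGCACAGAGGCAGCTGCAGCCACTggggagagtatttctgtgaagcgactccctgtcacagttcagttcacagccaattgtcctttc
Serpinb10: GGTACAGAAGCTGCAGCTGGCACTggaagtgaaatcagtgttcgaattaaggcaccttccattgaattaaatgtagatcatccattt
Serpinb5: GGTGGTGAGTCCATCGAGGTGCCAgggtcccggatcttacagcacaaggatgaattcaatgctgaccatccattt
Serpinb1a: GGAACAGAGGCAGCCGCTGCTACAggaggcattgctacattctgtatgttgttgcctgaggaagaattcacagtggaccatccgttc
Serpinb6a: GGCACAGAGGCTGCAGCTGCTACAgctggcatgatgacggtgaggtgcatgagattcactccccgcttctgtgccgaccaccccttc
Serpinb6b: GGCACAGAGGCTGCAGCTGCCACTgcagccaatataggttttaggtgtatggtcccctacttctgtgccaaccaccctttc
Serpinb9: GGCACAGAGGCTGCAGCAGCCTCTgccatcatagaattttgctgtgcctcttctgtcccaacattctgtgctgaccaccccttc
The printed stretches were 75 to 87 bases long. Alanine, the small residue that recurs in inhibitory hinges, was encoded 4 times in the hinge of Serpinb11, Serpinb1a, Serpinb6a, Serpinb6b and Serpinb9. It was encoded 3 times in Serpinb10, 2 times in Serpinb2 and 0 times in Serpinb5. The hinge of Serpinb5 shared 9 to 11 of 24 bases with the other 7 hinges, whereas those 7 shared 15 to 22 among themselves. Serpinb6a and Serpinb6b shared 22 of 24, as did Serpinb6b and Serpinb9.

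The 8 genes lie in 2 clusters in GRCm38. Serpinb5, Serpinb11, Serpinb2 and Serpinb10 are among 12 clade B genes at chr1:106861173-107610484, and Serpinb1a, Serpinb6b, Serpinb9 and Serpinb6a are among 16 at chr13:32842092-34002794. The annotated Serpinb2 gene (107511423 to 107535478) overlaps the start of Serpinb10 (107529003 to 107549271) on the same strand. The 250 bases before the RefSeq start site (GRCm38.p6) were searched for short motifs, and are printed for 3 of the 4 chromosome 1 members, because all 4 held the same one. That of Serpinb11 is not printed, because it lies in the first exon of the main GENCODE transcript, whose start is annotated farther upstream. Capitals mark TGANTCA, the letters of the AP-1 site, and TATAAA, the TATA box, searched on both strands.
Serpinb2, chr1:107511173-107511422, plus strand: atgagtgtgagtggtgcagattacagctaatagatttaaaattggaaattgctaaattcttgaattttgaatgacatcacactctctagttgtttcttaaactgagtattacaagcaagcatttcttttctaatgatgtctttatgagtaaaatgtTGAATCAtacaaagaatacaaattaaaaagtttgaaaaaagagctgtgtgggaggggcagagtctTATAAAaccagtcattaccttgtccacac
Serpinb10, chr1:107528753-107529002, plus strand: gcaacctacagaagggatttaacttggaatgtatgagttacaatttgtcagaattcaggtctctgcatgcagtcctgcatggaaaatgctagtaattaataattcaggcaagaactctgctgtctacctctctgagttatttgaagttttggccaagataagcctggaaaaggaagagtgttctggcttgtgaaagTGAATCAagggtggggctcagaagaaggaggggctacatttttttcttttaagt
Serpinb5, chr1:106860925-106861174, plus strand: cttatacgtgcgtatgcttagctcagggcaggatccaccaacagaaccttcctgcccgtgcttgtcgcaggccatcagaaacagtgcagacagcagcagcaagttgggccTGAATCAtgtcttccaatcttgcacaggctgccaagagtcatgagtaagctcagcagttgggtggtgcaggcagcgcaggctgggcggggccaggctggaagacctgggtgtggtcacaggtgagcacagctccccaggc
TGANTCA was found in the windows of all 4 of these genes, in each case as TGAATCA or, on the other strand, TGATTCA. It was found in 6.75% of the 32851 mouse promoter windows of that length, and TGAATCA in 2.43%. The more usual TGAGTCA, which TGANTCA includes, was found in 4.46% of windows and in none of the 4. In Serpinb2 it ended 88 bases before the start, in Serpinb10 48, in Serpinb5 134, and in Serpinb11 70 and 175. Of the other clade B genes of the chromosome 1 cluster, 3 of 7 with a window held TGANTCA and 1 held TGAATCA. None of the windows of Serpinb6a, Serpinb6b and Serpinb9, or of 12 further clade B genes on chromosome 13, held it. TATAAA was found only in Serpinb2 among the members, and in 12.4% of all windows. Of 3 other motifs searched, TGACGTCA (1.55% of windows) was in no member, GGAAGT (19.7%) was in Serpinb11, and TTNNGCAA (9.56%) was in Serpinb2. These matches describe letters and not binding.

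Libraries held 1824619 to 4440072 estimated counts, and 12211 genes passed the filter on low counts, all 8 members among them. Levels are given as counts per 1000000 (CPM) scaled by TMM factors. Summed CPM of 8 basal cell markers were 5448 to 8517 in BCAM HI, 5127 to 5769 in BCAM LO and 240 to 2422 in differentiated libraries. Most of the sum in differentiated libraries was Krt15, which averaged 1476 CPM there, while Krt5 averaged 0.854 CPM. Differentiated libraries also carried 5 thyroid markers at 13786 to 116697 CPM in sum, against 1.47 to 1282 in BCAM HI and 1.42 to 238 in BCAM LO. The 6 T and NK cell markers never summed to more than 5.04 CPM in a library. Lower cell numbers of a type and less RNA per cell cannot be told apart in such pools.

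Serpinb2, also called plasminogen activator inhibitor type 2, was highest in BCAM LO in both batches. It inhibits urokinase and is best known from macrophages and from stressed or differentiating epithelium. In BCAM HI the lowest, median and highest values were 0.354, 2.13 and 9.99 CPM, resting on 1 to 34 counts a library. In BCAM LO they were 7.29, 124 and 191 CPM, and in differentiated libraries 0, 25.4 and 84.6 CPM. BCAM LO was above the same-numbered library of each other group in 8 of 8 cases, and the ranges overlapped because batch 2 was low throughout. Within batch 1, the BCAM LO libraries ran from 115 to 191 CPM, with no overlap with BCAM HI (0.979 to 9.99) or differentiated libraries (20.7 to 84.6). Within batch 2, BCAM LO stood at 7.29, 13.6 and 20.3 CPM, differentiated libraries at 0, 3.95 and 4.53, and BCAM HI at 0.354, 1.88 and 2.37. The differentiated library at 0 was replicate 7, where 3 counts, the limit that a count of 0 allows, correspond to 1.28 CPM. On the scale of mean CPM, BCAM LO was 27.3-fold above BCAM HI and 3.32-fold above differentiated libraries. The fitted log2 differences were -4.62 ± 0.49 (SE) for BCAM HI against BCAM LO, -2.83 ± 0.50 for BCAM HI against differentiated and 1.79 ± 0.40 for BCAM LO against differentiated. In batch 2 alone the difference between BCAM HI and differentiated libraries was -0.79 ± 1.12, with overlapping ranges.

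Some markers of other cells moved with Serpinb2, and not in every group. The 7 suprabasal and hillock markers (Krt4, Krt13 and others, of squamous-like airway islands) summed to 2351 to 2508 CPM in BCAM LO of batch 1 and 1050 to 1427 in batch 2, against 409 to 966 in BCAM HI. In differentiated libraries they summed to 1533 to 2056 CPM in batch 1 and 402 to 936 in batch 2. All 7 were detected in every group, but they did not move alike. In differentiated libraries most of the sum was Cldn3 (mean 783 CPM) and Krt4 (436). Cldn3, Krt4 and Ecm1 were higher there than in BCAM HI. Krt13, Krt6a, Ly6d and Sprr1a were lower there (12.1, 1.40, 8.31 and 0.913 CPM) than in BCAM HI (24.1, 29.0, 13.7 and 15.3). Sprr1a was also lower in BCAM LO (10.7 CPM) than in BCAM HI. The 6 pan-immune markers summed to 37.4 to 115 CPM in BCAM LO of batch 1, 6.56 to 16.8 in BCAM LO of batch 2 and 11.0 to 33.8 in BCAM HI. In differentiated libraries they summed to 2.18 to 20.7 CPM in batch 1, where Serpinb2 was 20.7 to 84.6, and to 0.411 to 3.84 in batch 2. The 7 macrophage and monocyte markers summed to 54.2 to 97.5 CPM in BCAM LO of batch 1, 21.9 to 49.4 in batch 2, 19.3 to 50.4 in BCAM HI and 11.5 to 66.2 in differentiated libraries. The 7 markers of squamous tissue (oesophagus or skin) stayed at or under 18.1 CPM in every library, with Krtdap at 0 in all BCAM LO libraries. The part of these cells in the Serpinb2 values was not tested.

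Serpinb11 showed a different order: it was lowest in BCAM HI, intermediate in BCAM LO and highest in differentiated libraries. It is an epithelial clade B member that has been studied less than most of the others. Values in BCAM HI were 0.480, 1.96 and 4.45 CPM (lowest, median, highest), from 2 to 15 counts a library. In differentiated libraries they were 33.2, 95.9 and 444 CPM, above every BCAM HI library. BCAM LO lay between, at 1.37, 15.2 and 115 CPM, and its batches stood apart. In batch 1 the 5 BCAM LO libraries had 1.37, 7.98, 14.4, 14.5 and 15.8 CPM, and in batch 2 the 3 had 42.4, 76.2 and 115 CPM. The batch 2 libraries of BCAM LO thus lay within the range of the differentiated group, while those of batch 1 lay below it. Mean CPM of differentiated libraries was 61.2-fold that of BCAM HI and 3.53-fold that of BCAM LO. Without the highest library, differentiated replicate 8, these ratios were 39.3 and 2.27. Fitted log2 differences were -3.75 ± 0.66 for BCAM HI against BCAM LO, -6.04 ± 0.66 for BCAM HI against differentiated and -2.29 ± 0.50 for BCAM LO against differentiated.

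Across groups and batches, ciliated cell markers mostly moved with Serpinb11. Foxj1, Tekt1, Dnah5, Hydin, Spag6l and Dynlrb2, which build or specify motile cilia, summed to 3.18 to 10.1 CPM in BCAM HI and 95.0 to 509 in differentiated libraries. In BCAM LO they summed to 4.73 to 20.2 CPM in batch 1 and 147 to 251 in batch 2, the same split as for Serpinb11. The split was not particular to ciliated markers. Sums of 8 secretory cell markers in BCAM LO were 41276 to 63615 CPM in batch 1 and 76330.5 to 86885 in batch 2. Mean Serpinb11 in batch 1 was 10.8 CPM in BCAM LO and 1.42 in BCAM HI. Differentiated replicate 8, with the highest Serpinb11 value, also had the highest ciliated sum, 509 CPM. Within BCAM LO of batch 1, replicate 5 had the highest sum (20.2 CPM) with Serpinb11 at 7.98, and replicate 2 the lowest (4.73) with 15.8. Over the 24 libraries Serpinb11 and the ciliated sum had r = 0.885, and 0.193 after subtracting the mean of each group and batch. After this subtraction the basal, secretory, and suprabasal and hillock sums gave 0.542, 0.500 and 0.447. The part of ciliated or secretory cells in the Serpinb11 values was not tested.

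**Figure D1:**
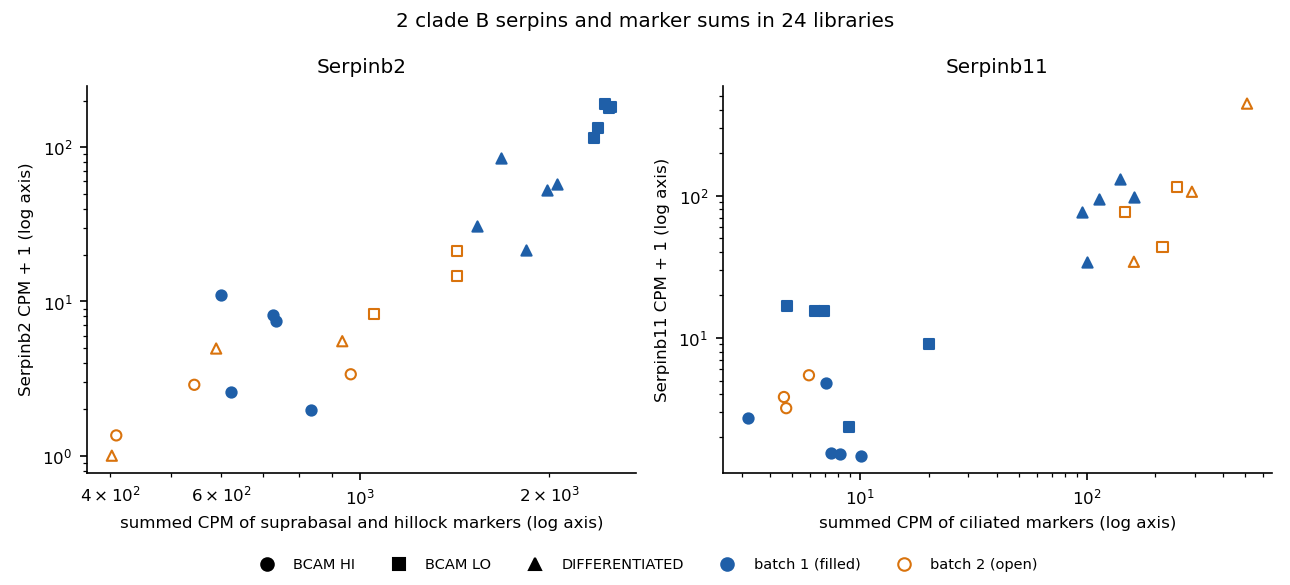
Each point is 1 of 24 libraries, with summed CPM of the marker list on the x axis and CPM + 1 of the gene on the y axis, both on log axes; filled points are batch 1 and open points batch 2. BCAM LO libraries of batch 1 (filled squares) lie at the top right for Serpinb2 (115 to 191 CPM, marker sums 2351 to 2508), and BCAM LO libraries of batch 2 (open squares) lie among the differentiated libraries for Serpinb11 (42.4 to 115 CPM).

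Serpinb5 was high in both BCAM groups and low in differentiated libraries. It encodes maspin, a non-inhibitory serpin of basal and myoepithelial cells, and is a target gene of p53 family factors. Values were 103, 150.3 and 205 CPM (lowest, median, highest) in BCAM HI, 59.6, 129 and 165 in BCAM LO and 1.71, 13.2 and 23.5 in differentiated libraries. Every BCAM HI and BCAM LO library was above every differentiated library. BCAM HI exceeded the same-numbered BCAM LO library in 8 of 8 cases, but by 0.42 ± 0.18 on the log2 scale and with overlapping ranges. The fitted log2 difference from differentiated libraries was 3.67 ± 0.21 for BCAM HI and 3.25 ± 0.21 for BCAM LO. The basal marker sums given above separated the same groups.

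Serpinb10 (bomapin, known as a nuclear serpin of myeloid cells) was highest in BCAM LO, with wide overlap. GENCODE M21 calls the gene a polymorphic pseudogene. Values were 9.55, 17.9 and 29.4 CPM in BCAM HI, 8.14, 26.2 and 59.2 in BCAM LO and 0.427, 8.49 and 32.2 in differentiated libraries. The 7 BCAM LO libraries other than replicate 3 (59.2 CPM) reached 28.0 CPM at most. Fitted log2 differences were -0.52 ± 0.36 for BCAM HI against BCAM LO, 0.77 ± 0.38 for BCAM HI against differentiated and 1.30 ± 0.38 for BCAM LO against differentiated. Of the distinct 31-base words in its transcripts, 7.52% also occur in transcripts of the overlapping Serpinb2, and 11.2% of those of Serpinb2 occur in Serpinb10, so estimated counts can be exchanged between the pair.

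The 4 members on chromosome 13 follow. Serpinb6a, a broadly expressed cytosolic serpin that inhibits cathepsin G and other serine proteases, had the smallest of the 8 fitted differences in CPM in each of the 3 comparisons. Its lowest, median and highest values were 141, 182 and 216 CPM in BCAM HI, 142, 167 and 200 in BCAM LO and 148, 188 and 259 in differentiated libraries. The fitted log2 differences were 0.08 ± 0.09, -0.04 ± 0.09 and -0.13 ± 0.09 for BCAM HI against BCAM LO, BCAM HI against differentiated and BCAM LO against differentiated. On the TPM scale they were 0.50, 0.77 and 0.26, beside shifts of 0.26, 0.75 and 0.48 in the median of all genes, and the second also turned to 0.05 without the filter on low counts, to 0.11 with batch 2 alone and to 0.01 without differentiated replicate 2. Of its 31-base words, 29.0% occur in transcripts of other genes, Nqo2 (13.1%) first among them.

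Serpinb6b, a close relative of Serpinb6a, fell into a graded order, BCAM HI above BCAM LO above differentiated libraries. Values were 51.8, 103 and 128 CPM in BCAM HI, 39.8, 66.1 and 87.5 in BCAM LO and 16.6, 41.2 and 55.9 in differentiated libraries. The order held in all 8 same-numbered sets, and within each batch the 3 ranges did not overlap. The fitted log2 differences were 0.55 ± 0.12 for BCAM HI against BCAM LO, 1.24 ± 0.13 for BCAM HI against differentiated and 0.69 ± 0.13 for BCAM LO against differentiated. The groups overlapped over both batches together because batch 2 was lower in each.

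Serpinb9, the inhibitor of granzyme B, was higher in BCAM HI than in BCAM LO in both batches. Values were 26.4, 51.5 and 60.7 CPM in BCAM HI, 17.7, 29.2 and 52.0 in BCAM LO and 28.4, 37.7 and 55.4 in differentiated libraries. Each BCAM HI library exceeded the same-numbered BCAM LO library, with a fitted log2 difference of 0.67 ± 0.19. BCAM HI and differentiated libraries differed by 0.25 ± 0.20, with 0.49 ± 0.22 in batch 1 and -0.09 ± 0.28 in batch 2, where BCAM HI was above in 1 of 3 pairs. The difference between BCAM LO and differentiated libraries was -0.42 ± 0.20. On the TPM scale it was 0.13, which is below the shift in the median of all genes given for Serpinb6a. Gzmb itself averaged 0.0927 CPM in BCAM LO, from 3 counts in all, and was at 0 in the other 2 groups.

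Serpinb1a, an inhibitor of neutrophil elastase, cathepsin G and proteinase 3, had its highest mean in BCAM LO in both batches (80.1 CPM in batch 1 and 58.0 in batch 2). Values were 26.7, 44.7 and 67.3 CPM in BCAM HI, 46.9, 72.2 and 94.6 in BCAM LO and 5.97, 57.5 and 74.8 in differentiated libraries. In batch 1 all 5 differentiated libraries (51.1 to 74.8 CPM) exceeded their same-numbered BCAM HI library, and in batch 2 all 3 (5.97, 9.04 and 37.9 CPM) were below it. In differentiated libraries the secretory, the basal, and the suprabasal and hillock markers moved with Serpinb1a. Secretory sums in those 3 libraries were 14166, 21397 and 93824 CPM in the same order, against 299362 to 437882 in batch 1. Basal sums were 240, 289 and 931 CPM, against 1921 to 2422 in batch 1. Suprabasal and hillock sums were 402, 590 and 936 CPM, against 1533 to 2056. Thyroid sums ran the other way, at 116697, 83012 and 49364 CPM in that order. Over the 24 libraries, which share groups and batches, Serpinb1a and the secretory sum had r = 0.544, and 0.843 after subtracting the mean of each group and batch. After this subtraction the basal sum gave 0.785, the suprabasal and hillock sum 0.774 and the other lists 0.371 or less. Before it, r was higher than for the secretory sum with suprabasal and hillock (0.761), macrophage and monocyte (0.709) and basal markers (0.667). Mean secretory sums were 39659 CPM in BCAM HI and 236668 in differentiated libraries, while mean Serpinb1a was 44.4 and 47.4 CPM. The part of any of these cells in the Serpinb1a values was not tested. The fitted log2 difference between BCAM HI and differentiated libraries was -0.49 ± 0.31 in batch 1 and 1.19 ± 0.43 in batch 2, and 0.06 ± 0.30 over both. Over both, it turned to -0.18 without BCAM HI replicate 8, to -0.10 without differentiated replicate 6 and to -0.13 without differentiated replicate 7. For BCAM HI against BCAM LO it was -0.66 ± 0.29. On the TPM scale this was 0.06, below the shift of 0.26 in the median of all genes. For BCAM LO against differentiated the fitted difference was 0.72 ± 0.30. Elane and Ctsg, which encode 2 of the proteases it inhibits, averaged 0.0985 CPM each in BCAM HI, from 3 counts. Prtn3, which encodes proteinase 3, averaged 0.707 CPM there, from 19 counts, and Ctsg averaged 0.143 CPM in BCAM LO, from 5 counts.

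**Figure D2:**
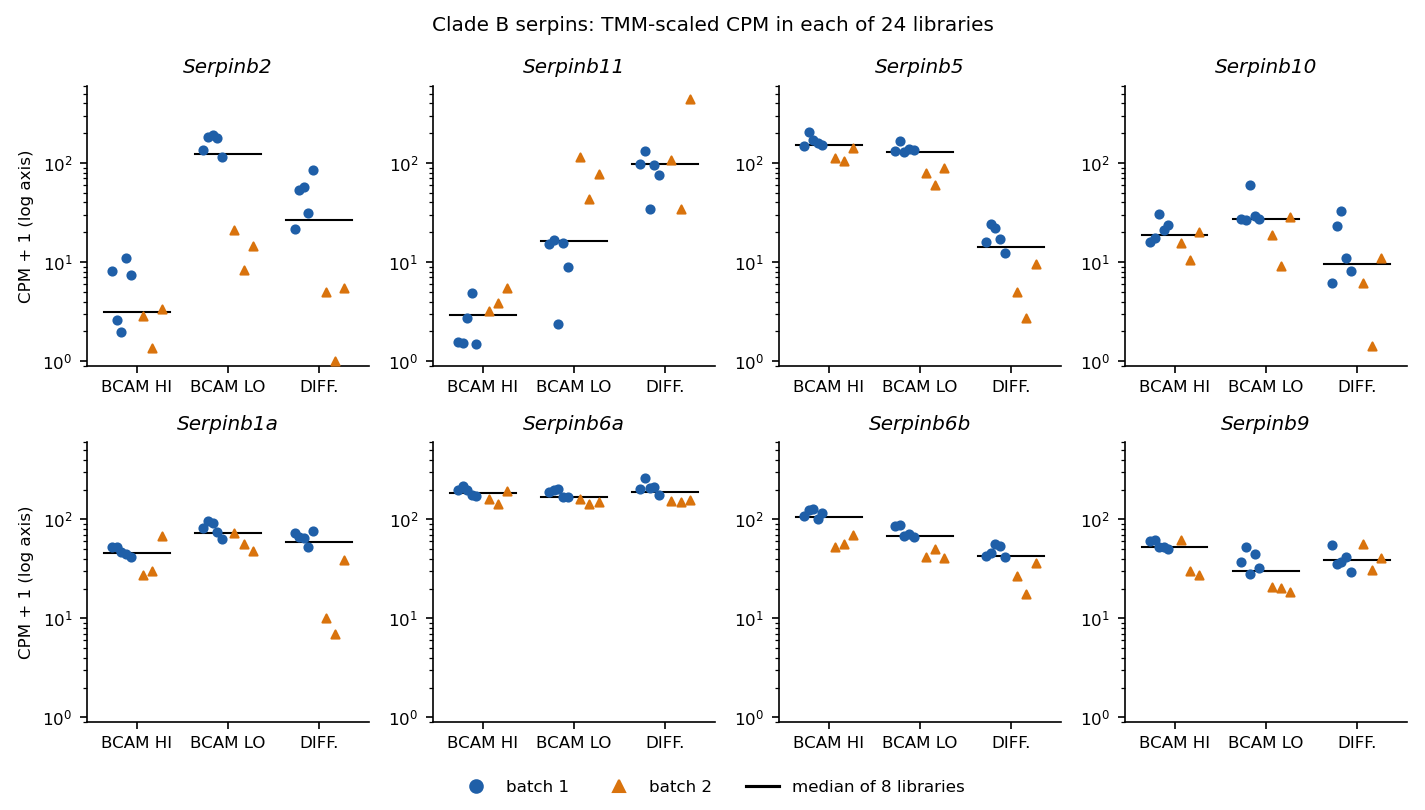
Points are TMM-scaled CPM + 1 on a log axis for each library (circles batch 1, triangles batch 2) and lines are medians of 8 libraries, for BCAM HI, BCAM LO and differentiated (DIFF.) libraries. Serpinb2 peaks in BCAM LO (median 124 CPM), Serpinb11 in differentiated libraries (median 95.9 CPM), Serpinb5 is low in differentiated libraries (median 13.2 CPM) and Serpinb6a is level (medians 167 to 188 CPM).

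Between BCAM HI and BCAM LO, 4 of the 8 members passed the threshold (edgeR quasi-likelihood test, Benjamini-Hochberg adjusted p under 0.05 over all genes), where 7.02% of all genes did. Serpinb6b and Serpinb9 were higher in BCAM HI, where 2.43% of all genes were, and Serpinb2 and Serpinb11 were lower, where 4.59% were. Against differentiated libraries, 4 members passed for BCAM HI, with Serpinb5 and Serpinb6b higher and Serpinb2 and Serpinb11 lower, beside 41.3% of all genes (19.4% higher and 22.0% lower). For BCAM LO, 5 members passed, with Serpinb2, Serpinb5, Serpinb6b and Serpinb10 higher and Serpinb11 lower, beside 33.5% of all genes (16.3% higher and 17.1% lower). Groups did not overlap for 0, 2 and 1 members in the same order, beside 1.50%, 13.4% and 7.27% of all genes. The members were chosen with these contrasts known, so nothing is read from the counts or from single calls. Calls lost or gained in other fits only describe how the values depend on the libraries and the processing. Median log2 differences of the 8 were -0.22, 0.15 and 0.70, against 8.78e-05, 0.02 and 0.02 over all genes tested. The comparisons share libraries in pairs, so their values are not independent of each other. The Serpinb9 call between the BCAM groups was lost on leaving out any of 8 libraries: BCAM HI replicate 1, 2 or 6, or BCAM LO replicate 3, 5, 6, 7 or 8, with log2 differences of 0.55 to 0.65. Serpinb1a passed between the BCAM groups without BCAM HI replicate 8 (-0.93) and for BCAM LO against differentiated without BCAM HI replicate 8 (0.74). Serpinb10 passed for BCAM HI against differentiated without differentiated replicate 3 (1.12), and Serpinb9 for BCAM LO against differentiated without BCAM LO replicate 2 (-0.53). With batch 2 alone, 3 libraries a group, 9 of the 13 calls were lost, and those kept were Serpinb5, Serpinb6b and Serpinb11 for BCAM HI and Serpinb5 for BCAM LO, each against differentiated libraries. The log2 differences of the lost calls were -3.10 for Serpinb2, -4.59 for Serpinb11, 0.43 for Serpinb6b and 1.02 for Serpinb9 between the BCAM groups, and -0.81 for Serpinb2 between BCAM HI and differentiated. For BCAM LO against differentiated they were 2.28 for Serpinb2, -1.31 for Serpinb11, 0.74 for Serpinb6b and 1.77 for Serpinb10. With batch 1 alone, the Serpinb9 call between the BCAM groups was lost (0.52). On the TPM scale, the Serpinb2 call between BCAM HI and differentiated libraries was lost (-0.58). Calls gained there for BCAM HI against differentiated were Serpinb10 (2.11), Serpinb9 (1.01), Serpinb1a (0.93) and Serpinb6a (0.77). Serpinb1a was also gained for BCAM LO against differentiated (0.86), and Serpinb6a between the BCAM groups (0.50). These values include the shift in the median of all genes given for Serpinb6a.

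**Figure D3:**
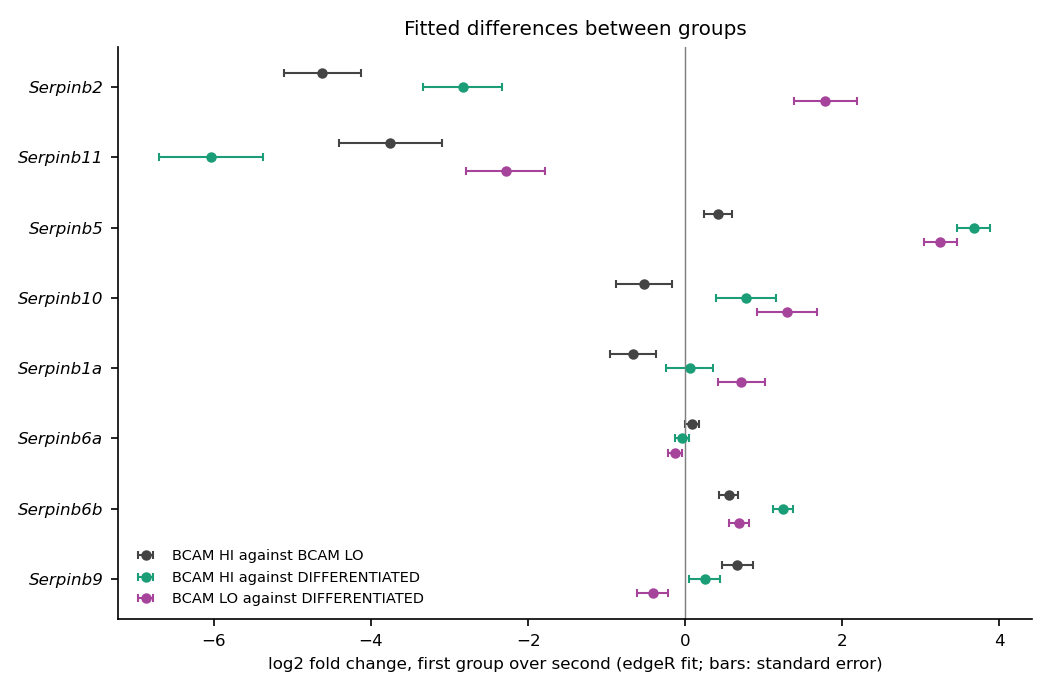
Points are log2 fold changes from the edgeR fit over 24 libraries with batch as a covariate, and bars are standard errors; a value above 0 means higher in the first group named. Serpinb2 and Serpinb11 differ most between the BCAM groups (-4.62 and -3.75), and Serpinb5 differs most from differentiated libraries in the positive direction (3.67 and 3.25).

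To compare genes with each other, TPM, which are scaled by transcript length, were set against the sum of all 28 clade B genes within each library. The 8 members made up 93.7% ± 3.02 of that sum in BCAM HI, 92.6% ± 2.49 in BCAM LO and 93.2% ± 2.87 in differentiated libraries (mean ± SD, n = 8). Serpinb6a led the family in 8 BCAM HI, 8 BCAM LO and 7 differentiated libraries, with mean shares of 37.8%, 30.4% and 45.2%. Serpinb11 led in the remaining one, differentiated replicate 8, with 45.5%. Serpinb5 held 21.7% ± 3.28 in BCAM HI, 15.9% ± 4.21 in BCAM LO and 2.24% ± 1.31 in differentiated libraries. Its order with Serpinb2 in BCAM LO differed between batches: mean TPM of Serpinb2 and Serpinb5 were 93.4 and 84.6 in batch 1, and 9.28 and 49.6 in batch 2. The share of Serpinb2 was 1.00% ± 0.71 in BCAM HI, 12.6% ± 8.29 in BCAM LO and 4.41% ± 4.21 in differentiated libraries. The share of Serpinb11 was 0.352% ± 0.307, 5.68% ± 6.73 and 16.3% ± 12.9 in the same order. Serpinb1a stayed between 11.3% and 12.8% on average. Summed over the family, TPM were 485 ± 93.4 in BCAM HI, 438 ± 132 in BCAM LO and 248 ± 84.2 in differentiated libraries. Summed CPM, in contrast, were 582 ± 99.6, 669 ± 156 and 530.2 ± 155, so the order of the groups depended on the scale.

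**Figure D4:**
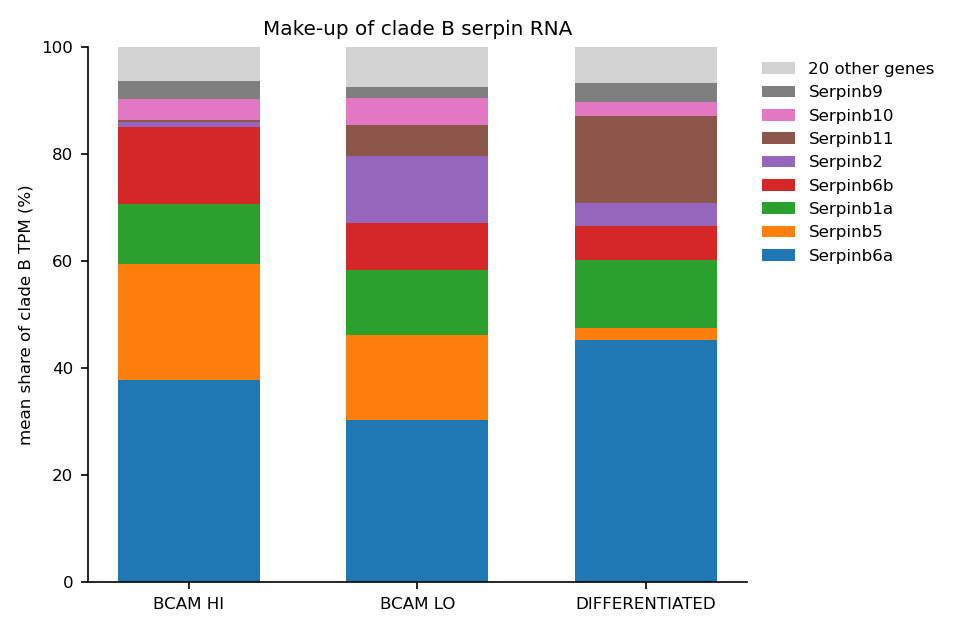
Bars show the mean share, in percent, of the summed TPM of 28 clade B genes in 8 libraries per group, with the 20 genes that are not members in grey. Serpinb6a is the largest part in each group (37.8%, 30.4% and 45.2%), Serpinb5 shrinks to 2.24% in differentiated libraries, and Serpinb11 grows to 16.3%.

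Batch ranges were apart for most members in BCAM LO and differentiated libraries, and overlapped for most in BCAM HI. Mean CPM was lower in batch 2 for 7 of 8 members in BCAM HI, 7 in BCAM LO and 6 in differentiated libraries, and Serpinb11 was the one that was higher in batch 2 in every group. No share of all genes is given beside these counts of means, so nothing is read from them. In BCAM HI the log2 differences, batch 2 minus batch 1, of Serpinb1a (-0.18 ± 0.35) and Serpinb10 (-0.52 ± 0.53) were smaller than their standard errors. In BCAM HI the batch 1 libraries lay above all batch 2 libraries for Serpinb5 and Serpinb6b. In BCAM LO this held for Serpinb2, Serpinb5, Serpinb6a, Serpinb6b and Serpinb9, and in differentiated libraries for Serpinb2, Serpinb5, Serpinb1a, Serpinb6a and Serpinb6b. Among all genes, 9.04%, 8.41% and 10.8% were above in batch 1 in this way in BCAM HI, BCAM LO and differentiated libraries, and 9.82%, 9.89% and 10.9% were above in batch 2. Serpinb11 in BCAM LO was the single case with batch 2 above, beside the 9.89% of all genes in that group. The log2 difference of Serpinb2, batch 2 minus batch 1, was -1.67 ± 0.86 in BCAM HI, -3.54 ± 0.59 in BCAM LO and -4.13 ± 0.74 in differentiated libraries, and mean CPM was 3.41-fold, 11.6-fold and 17.3-fold higher in batch 1. That of Serpinb6b was alike across groups, at -0.97 ± 0.18, -0.79 ± 0.19 and -0.87 ± 0.20. That of Serpinb11 was 1.19 ± 1.21, 2.85 ± 0.68 and 1.18 ± 0.63. Basal marker sums of differentiated libraries were 1921 to 2422 CPM in batch 1 and 240 to 931 in batch 2, and thyroid sums were 13786 to 25897 and 49364 to 116697. Most of these basal sums was Krt15, with means of 2084 CPM in batch 1 and 463.7 in batch 2. The other basal markers averaged 18.1 CPM at most and moved in both directions. Krt5 stayed at 0.872 and 0.823 CPM, Ngfr fell from 8.45 to 0.686 and Trp63 rose from 2.23 to 18.1. Sums of 8 secretory cell markers in the same libraries were 299362 to 437882 CPM in batch 1 and 14166 to 93824 in batch 2. The part of these cells in the batch differences was not tested.

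**Figure D5:**
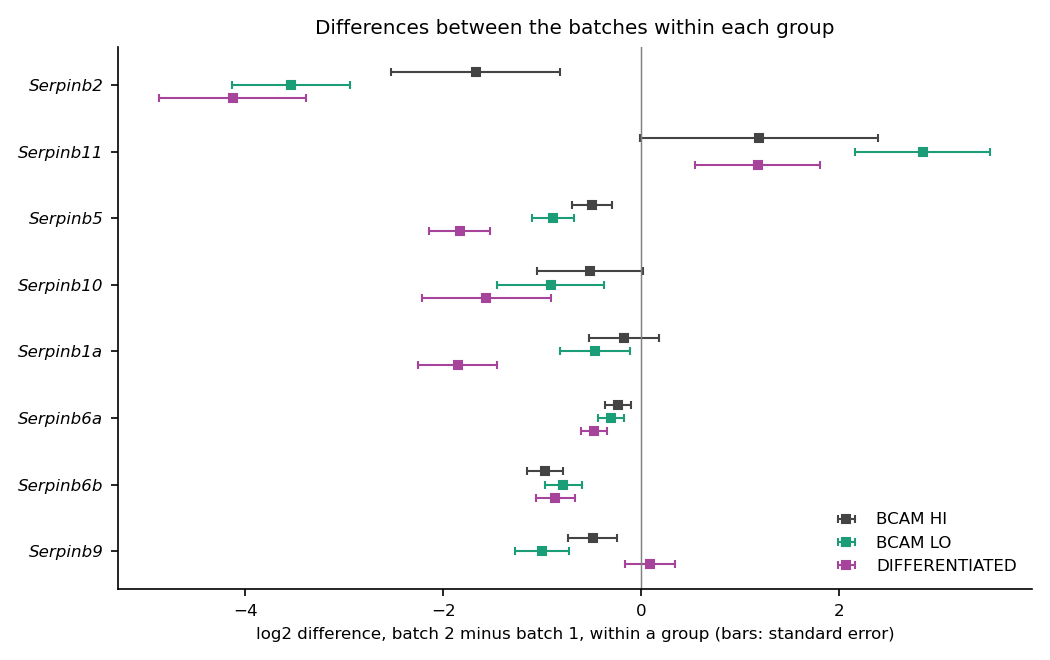
Points are log2 differences between batch 2 (3 libraries) and batch 1 (5 libraries) within each group, and bars are standard errors. Serpinb11 lies to the right of 0 in all 3 groups (1.19, 2.85 and 1.18), Serpinb2 lies farthest to the left (-1.67, -3.54 and -4.13), and most other values are below 0.

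Of the 20 other clade B genes, 2 passed the filter on low counts, Serpinb8 and Serpinb12. Serpinb8, an inhibitor of furin-like proteases, was at 37.7 ± 3.10 CPM in BCAM HI, 39.4 ± 6.53 in BCAM LO and 24.3 ± 11.2 in differentiated libraries (mean ± SD, n = 8). It was higher in BCAM HI than in differentiated libraries by 0.71 ± 0.19 on the log2 scale (edgeR adjusted p = 0.00353, higher in 6 of 8 same-numbered pairs). BCAM LO exceeded differentiated libraries by 0.75 ± 0.19 (edgeR adjusted p = 0.00294, higher in 7 of 8). The difference between BCAM HI and differentiated libraries was 0.24 ± 0.19 in batch 1 and 1.59 ± 0.26 in batch 2, and this change between batches was itself past the threshold (1.34 ± 0.32, edgeR interaction adjusted p = 0.00533). Such a change between batches was called for 8.69% of all genes in this comparison, for 1.06% between the BCAM groups and for 11.4% for BCAM LO against differentiated. Serpinb12, an epithelial member that inhibits trypsin-like proteases, stood at 0.875 ± 0.875 CPM in BCAM HI, 3.54 ± 3.20 in BCAM LO and 5.99 ± 3.81 in differentiated libraries. It was lower in BCAM HI than in differentiated libraries by -2.54 ± 0.71 (edgeR adjusted p = 0.00463, lower in 6 of 8). In batch 1 alone neither difference from differentiated libraries in BCAM HI passed (edgeR adjusted p = 0.306 for Serpinb8 and 0.10 for Serpinb12). Between the BCAM groups, 0 of 2 were called by edgeR and 0 by DESeq2, and 1, Serpinb12, had an unadjusted p under 0.05 with each tool (edgeR adjusted p = 0.137). For BCAM LO against differentiated, Serpinb12 gave -0.80 ± 0.63 (edgeR adjusted p = 0.348). The 18 genes that did not pass the filter had at most 17.7 counts in a library and reached 5.33 TPM at most, both in Serpinb1b. Serpinb3a to Serpinb3d, relatives of the human squamous cell carcinoma antigens, had 3 to 8.66 counts over all 24 libraries.

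Among 26 serpins of other clades, listed with earlier results known, 7 passed the filter. Between the BCAM groups, 0 of the 7 were higher and 1 was lower in BCAM HI, and against differentiated libraries 2 were higher and 3 lower for each BCAM group. Of all genes tested, 2.43% were higher and 4.59% lower between the BCAM groups, 19.4% and 22.0% for BCAM HI against differentiated, and 16.3% and 17.1% for BCAM LO against differentiated. Serpina9, the lower one, differed by -1.13 ± 0.35 between the BCAM groups (edgeR adjusted p = 0.047, lower in 6 of 8 pairs). Serpinf1, a secreted anti-angiogenic factor, was 1.83 ± 1.15 CPM in BCAM HI, 5.51 ± 8.44 in BCAM LO and 42.0 ± 17.6 in differentiated libraries, a log2 difference of -4.47 ± 0.71 for BCAM HI (edgeR adjusted p = 2.43e-05). Serpine2, which inhibits thrombin and urokinase, was also lower in BCAM HI (-2.18 ± 0.46, edgeR adjusted p = 0.000563) and BCAM LO (-2.80 ± 0.50, edgeR adjusted p = 0.000127) than in differentiated libraries. Its values were uneven in differentiated libraries, at 59.8 ± 68.9 CPM with a highest value of 222, against 12.1 ± 3.92 in BCAM HI and 7.94 ± 3.24 in BCAM LO. Serpinh1, the collagen chaperone, was higher in both BCAM groups than in differentiated libraries (1.23 ± 0.21, edgeR adjusted p = 1.96e-05, and 0.98 ± 0.21, edgeR adjusted p = 0.00054). The part of cells with thyroid markers in these differences was not tested.

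Of 29 proteases and partners, 18 passed the filter, and between the BCAM groups 0 were higher and 5 lower in BCAM HI, beside the same shares of all genes. This list, too, was drawn up with earlier results known. Plat, the tissue plasminogen activator, which Serpinb2 inhibits less well than urokinase, was 2.73 ± 2.11 CPM in BCAM HI, 31.4 ± 21.5 in BCAM LO and 41.7 ± 23.0 in differentiated libraries. It differed by -3.43 ± 0.53 between the BCAM groups (edgeR adjusted p = 0.000283, lower in 8 of 8 pairs). Plau, which encodes urokinase, did not pass the filter, with a mean of 2.84 CPM in BCAM HI, 1.48 in BCAM LO and 0.878 in differentiated libraries. Its receptor Plaur averaged 23.9, 25.9 and 31.8 CPM in the same order. Tmprss4 was also lower in BCAM HI than in BCAM LO (-2.06 ± 0.38, edgeR adjusted p = 0.00146), as were Ctss (-1.47 ± 0.45, edgeR adjusted p = 0.0478) and Ctsh (-0.47 ± 0.09, edgeR adjusted p = 0.00184). Ctss encodes a cathepsin of antigen-presenting cells, and its mean was 18.2 ± 13.6 CPM in BCAM LO, where pan-immune sums reached 115 CPM. That the immune cells had a part in it was not tested. Against differentiated libraries, 3 were higher and 7 lower for BCAM HI, beside 19.4% and 22.0% of all genes. For BCAM LO, 3 were higher and 4 lower, beside 16.3% and 17.1% of all genes. Prss8 (prostasin) was lower by -1.70 ± 0.14 in BCAM HI (edgeR adjusted p = 4.68e-11) and -1.57 ± 0.14 in BCAM LO (edgeR adjusted p = 4.43e-10) than in differentiated libraries. Prss22 ran the other way, by 1.92 ± 0.37 and 2.27 ± 0.37 (edgeR adjusted p = 0.000127 and 2.46e-05). The protease genes of neutrophil and killer cell granules, Elane, Ctsg, Prtn3, Gzma, Gzmb and Gzmk, did not pass the filter.

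For each member, the genes with the most similar pattern were sought among 9746 genes, by Pearson correlation of log2(CPM + 1) over the 24 libraries. These libraries share groups, batches and depth, so the coefficient after subtracting the mean of each group and batch is given beside it. Serpinb2 was closest to Ly6g6c (r = 0.902, 0.310 after subtraction), Cwh43 (0.897, 0.585) and Ifit1bl1 (0.896, 0.450). Ly6g6c averaged 2.93 CPM in BCAM HI, 94.8 in BCAM LO and 29.9 in differentiated libraries. Serpinb5 was closest to Sfn (r = 0.989, 0.762), Perp (0.983, 0.618) and Adamtsl5 (0.983, 0.755). Serpinb11 was closest to Tekt4 (r = 0.938, 0.593), Ttc39a (0.938, 0.693) and Ubxn10 (0.929, 0.801). Serpinb1a was closest to Tspan8 (r = 0.947, 0.835), Oit1 (0.940, 0.894) and Krt19 (0.936, 0.797), all of which kept most of the coefficient. Among the genes closest to Serpinb6b were the ribosomal protein genes Rpl23a (r = 0.947, 0.615) and Rplp1 (0.936, 0.239). Serpinb6a was closest to Sgf29 (r = 0.874, 0.707), Dazap2 (0.871, 0.675) and Tuba1b (0.859, 0.824), and among those closest to Serpinb10 were H2afy (0.881, 0.731) and S100a6 (0.850, 0.759). Serpinb9 was closest to Btg2 (r = 0.750, 0.269), Armcx1 (0.729, 0.459) and Ttc4 (0.722, 0.601).

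The estimated counts of a gene are divided among its transcripts, which share sequence, so this division is less certain than the gene's sum. Serpinb11 was carried by ENSMUST00000027566, with 96.5% ± 4.70 of its counts in BCAM LO and 99.9% ± 0.37 in differentiated libraries (mean ± SD, n = 8). Serpinb9 was likewise carried by ENSMUST00000006391, with 97.4% ± 7.22 in BCAM HI and 92.2% ± 22.0 in BCAM LO. Serpinb2 was split in BCAM LO mainly between 2 coding transcripts, and ENSMUST00000009356 held 24.8% to 94.1% of its counts in single BCAM LO libraries. For Serpinb6b, 44.0% ± 8.23 of counts in BCAM HI and 36.6% ± 6.21 in BCAM LO went to ENSMUST00000017184, a transcript annotated as a target of nonsense-mediated decay.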

How the data were processed

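Low-input SmartSeq2 libraries were read as pairs of 38 bases, per the labels' protocols. The deposited tables give, per the file headers, an estimated count and a TPM for each of 117497 transcripts. The submitters' processing notes name kallisto 46.1, Picard and GRCm39; coordinates printed here are GRCm38. Of the transcripts, 116374 matched GENCODE M21 and were summed per gene. The 1123 others held 0.317% to 0.594% of counts and were left out. Sums were rounded and tested with edgeR 4.0.16 (R 4.3.3; robust quasi-likelihood fit, TMM factors, default filter by group, batch as covariate, all 24 libraries). Log2 differences and standard errors come from that fit, and genes were called at an adjusted p under 0.05. CPM are TMM-scaled. Alternatives used DESeq2 1.42.0 and limma 3.58.1 on log2(TPM + 0.1). The edgeR script was tested on simulated data. Amplified reads carry no molecular identifiers, so limits from counts cover counting error only.

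The members and all lists were chosen with earlier results of these data known. Named were all members, both tested other clade B serpins, per list and comparison up to 4 called genes of at least 10 CPM by size of change, and up to 3 pattern neighbours per member, of which 2 are not reported here; Plau, Plaur, the granule protease genes, Serpinb1b, Serpinb3a to Serpinb3d and the marker genes were named beyond the rule, after their values were seen. Promoters are from the RefSeq table (GRCm38.p6), with 7 of 8 members matched; Serpinb1a was not matched. Loops come from the longest complete coding sequence of each gene in GENCODE M21, whose transcript need not hold most of the counts. For Serpinb10 that transcript is annotated as a polymorphic pseudogene, and for Serpinb9 it is not the main transcript named above. Same-numbered libraries of the BCAM groups deviated together from their group means (r of 0.12 to 0.29 across genes). With batch means removed as well, r was 0.03 to 0.17. The labels do not tie the numbers to animals, so the number was used as a block only in an alternative.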

Additional observations from a re-analysis of the deposited data

Results flagged for a closer look

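Single libraries stood far from the other 7 of their group in 2 of 30 sets of gene and group checked. The limit used marks about 1 in 20 sets of 8 values drawn from 1 normal distribution. CPM can be skewed and the sets pool 2 batches, so this rate need not hold here. Serpinb11 was at 444 CPM in differentiated replicate 8, and the next library was at 131 CPM. This library also had the highest sum of ciliated markers, 509 CPM. Serpinb10 was at 59.2 CPM in BCAM LO replicate 3, and the next library was at 28.0 CPM.

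The difference of Serpinb8 between BCAM HI and differentiated libraries was larger in batch 2 than in batch 1 by 1.34 on the log2 scale (edgeR interaction adjusted p = 0.00533), beside 8.69% of all genes whose difference changed between batches in this comparison. Serpinb1a was lower in BCAM HI than in differentiated libraries in all 5 pairs of batch 1 and higher in all 3 pairs of batch 2, a difference of 1.68 on the log2 scale. This difference between batches was not tested, because the gene was chosen with results known.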

How the results depend on the processing

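Genes called numbered 857 between the BCAM groups, 5044 for BCAM HI against differentiated and 4086 for BCAM LO against differentiated. With batch 2 alone, 543 were called in the first comparison and 2221 in the third. limma on log2(TPM + 0.1) called 7688 in the second, and the median of all genes shifted by 0.26, 0.75 and 0.48 on the log2 scale in the 3 comparisons. Its split of higher to lower calls was 592 to 189, 6809 to 879 and 4277 to 624, against 297 to 560, 2363 to 2681 and 1996 to 2090. With batch 1 alone, 0 other clade B serpins were called for BCAM HI against differentiated, against 2. Leaving out single libraries gave 685 to 979, 4768 to 5225 and 3761 to 4194 calls. With the replicate number as a block, 864, 5129 and 4136 genes were called, and Serpinb10 passed for BCAM HI against differentiated (0.96); no other call of a member or other clade B serpin changed under the block.

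No called member changed direction under any alternative run. The log2 difference moved by more than the spread between libraries for 5 of 24 values with batch 2 alone and 13 of 24 on the TPM scale, where differences ran relative to the shifted median. Serpinb1a passed with DESeq2 for BCAM LO against differentiated (0.72), and with batch 1 alone between the BCAM groups (-0.78) and for BCAM HI against differentiated (-0.49), as did Serpinb9 in the latter (0.49). With batch 2 alone Serpinb9 passed for BCAM LO against differentiated (-1.12). Low counts (1 to 34 for Serpinb2 and 2 to 15 for Serpinb11 in BCAM HI) limit the precision of both genes there.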
